A study of Homo sapiens with 12 samples.

Results

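The DNA replication and S-phase genes are 38 genes whose products load and run the replication machinery, supply its nucleotides, rebuild chromatin on the copied strands or admit a cell to S phase. They were taken by gene name from a table of 23398 gene entries, with no cut on measured values. Earlier results of these data were known when the list was chosen, so the choice was not blind to them. All 38 were found and had enough counts to be tested among 14324 genes. The data are messenger RNA counts from human brain microvascular endothelial cells of a commercial supplier, which form the inner lining of brain capillaries. The cells carried, for 48 h, either siGlut1, an siRNA against the transcript of SLC2A1 that encodes the glucose transporter Glut1, or a non-silencing siRNA (NS). Each siRNA was combined with high glucose or with control medium, which gives siGlut1 high with 3 libraries, siGlut1 control with 3, NS high with 2 and NS control with 3. The labels give no glucose concentration and do not say whether replicates were separate cultures. The p-values therefore describe the spread between these libraries alone, and that spread may be technical. The design asks what Glut1 loss, high glucose and their combination do to the transcripts of these cells.

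A replication origin is prepared in G1, when CDC6 and CDT1 load the ring of MCM2 to MCM7 onto DNA. In S phase CDC45 and the GINS proteins turn that ring into an active helicase, primase and polymerase alpha lay down primers, and polymerases delta and epsilon extend them on the sliding clamp PCNA. Many of these genes are transcribed in a burst at the entry into S phase by E2F factors once cyclin-dependent kinases have inactivated the retinoblastoma protein, so their transcripts are widely used as a sign of how many cells of a culture are cycling. In bulk RNA, fewer cells in S phase and less RNA of these genes per cell cannot be told apart.

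Promoters of these genes are shown because E2F sites near the start are the feature the group is known for. RefSeq promoter windows on GRCh38.p14, running from 250 bases before to 50 bases after an annotated start, were found for 34 of the 38 members, 45 windows in all since some genes have several starts. The searched E2F core was TTTCCCGC, TTTCGCGC, TTTGCCGC or TTTGGCGC on either strand. It stood in at least 1 window of 19 of the 34 members (55.9%), of 11 of 34 other replication genes and of 3 of 29 mitosis genes, and of 4.01% of all 27195 genes with a window. The letters CCAAT, on either strand, stood in 20 of the 34 members (58.8%) and in 39.7% of all genes. They stood in 21 of 34 other replication genes (61.8%) and in 23 of 29 mitosis genes (79.3%), so CCAAT is not particular to the members. Of 27 E2F core positions in the members, 16 lay within the 100 bases before the start. Of the windows below, POLA1, RFC5 and LIG1 are those with the lowest mean siRNA fold changes among the members named by rule. MCM6 and E2F1 were added after the matches were seen, as members with several. Each window has 300 bases and capitals mark the E2F core. The windows are POLA1 (chrX:24693668-24693967, plus strand), RFC5 (chr12:118016453-118016752, plus strand), LIG1 (chr19:48170295-48170594, minus strand), MCM6 (chr2:135876394-135876693, minus strand) and E2F1 (chr20:33686336-33686635, minus strand).
POLA1: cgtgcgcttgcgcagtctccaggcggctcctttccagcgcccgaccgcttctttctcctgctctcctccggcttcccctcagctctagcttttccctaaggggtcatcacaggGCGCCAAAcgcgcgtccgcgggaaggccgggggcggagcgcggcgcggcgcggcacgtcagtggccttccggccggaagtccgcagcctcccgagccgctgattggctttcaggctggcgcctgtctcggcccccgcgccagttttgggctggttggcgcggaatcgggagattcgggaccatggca
RFC5: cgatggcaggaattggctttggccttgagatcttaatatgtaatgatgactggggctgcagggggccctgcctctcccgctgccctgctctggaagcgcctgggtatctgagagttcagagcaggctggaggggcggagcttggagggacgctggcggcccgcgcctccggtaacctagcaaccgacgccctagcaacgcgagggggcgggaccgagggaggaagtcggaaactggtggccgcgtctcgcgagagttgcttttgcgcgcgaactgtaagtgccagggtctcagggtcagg
LIG1: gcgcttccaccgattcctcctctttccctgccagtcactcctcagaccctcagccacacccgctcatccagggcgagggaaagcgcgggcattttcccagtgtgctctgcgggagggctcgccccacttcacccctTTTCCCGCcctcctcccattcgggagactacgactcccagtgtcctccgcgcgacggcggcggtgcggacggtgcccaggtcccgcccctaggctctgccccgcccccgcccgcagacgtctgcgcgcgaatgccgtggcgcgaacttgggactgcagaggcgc
MCM6: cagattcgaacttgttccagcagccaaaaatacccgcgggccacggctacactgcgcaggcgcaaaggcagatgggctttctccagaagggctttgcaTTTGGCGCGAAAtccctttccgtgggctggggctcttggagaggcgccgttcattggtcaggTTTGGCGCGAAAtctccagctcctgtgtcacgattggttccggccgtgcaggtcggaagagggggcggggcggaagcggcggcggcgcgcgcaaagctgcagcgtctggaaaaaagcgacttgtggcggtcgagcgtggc
E2F1: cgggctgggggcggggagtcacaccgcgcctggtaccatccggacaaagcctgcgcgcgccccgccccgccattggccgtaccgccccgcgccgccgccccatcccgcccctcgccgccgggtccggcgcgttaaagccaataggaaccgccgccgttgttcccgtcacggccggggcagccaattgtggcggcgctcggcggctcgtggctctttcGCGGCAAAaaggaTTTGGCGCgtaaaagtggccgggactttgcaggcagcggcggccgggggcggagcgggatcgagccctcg
The window of POLA1 held 1 core match on the opposite strand, and that of LIG1 held 1 on the strand shown. RFC5 had 0 matches to these letters. In MCM6 each of the capital runs holds a pair of matches on opposite strands that overlap, which makes 4. E2F1, itself an E2F factor, had 2 matches. A match describes the sequence only.

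**Figure D1:**
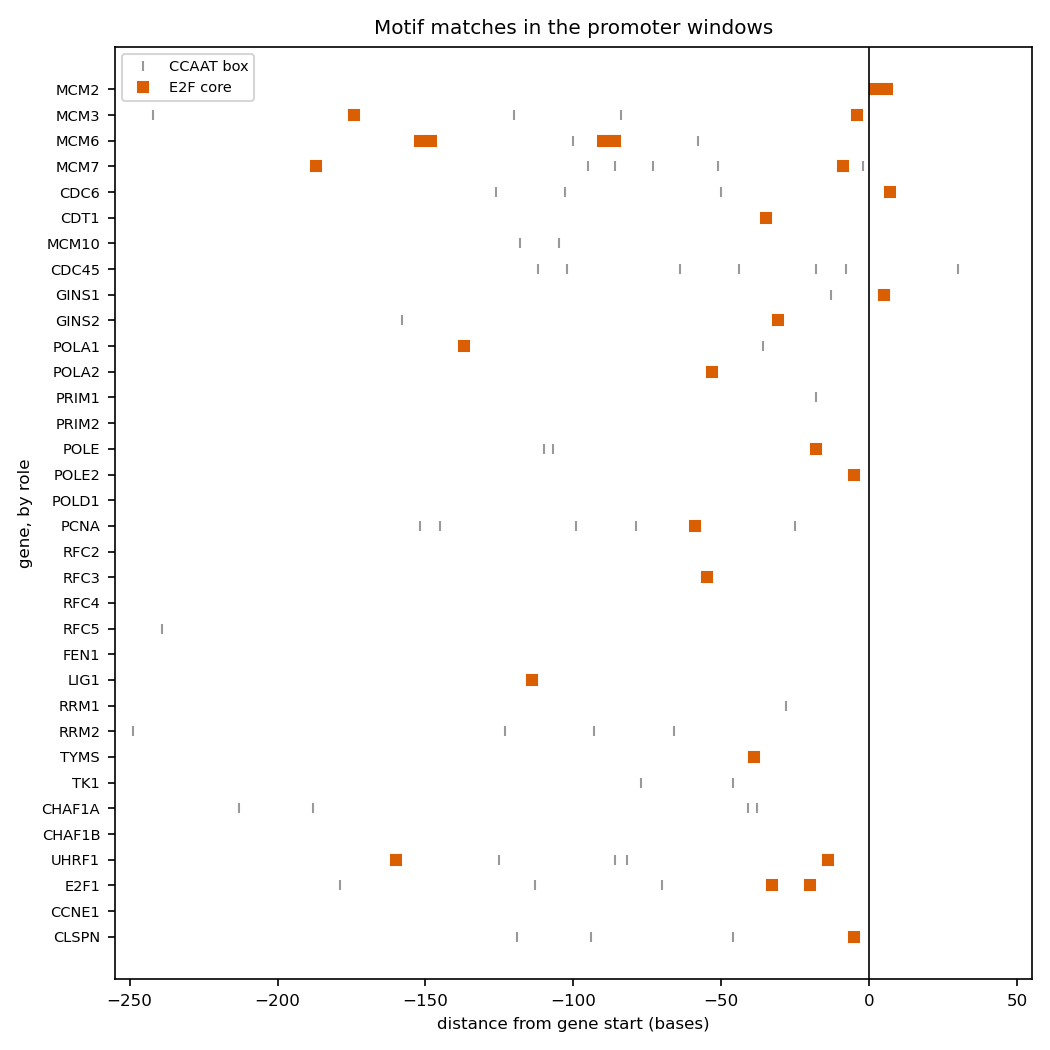
Distance of each match from the annotated start (bases, x axis) in the promoter windows of the 34 members with an entry (y axis), for the E2F core and for CCAAT. Of the 27 E2F core positions, 16 lie within the 100 bases before the start, and 15 of the members have none.

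Library totals ran from 40135082 to 90536476 counts. The column of NS high 2 equalled the mean of NS high 1 and 3 in 23397 of 23398 entries and in all 38 members, and it was left out. SLC2A1, the target of the siRNA, stood at 7.09, 7.19 and 6.38 CPM in siGlut1 high and 8.56, 9.05 and 6.26 in siGlut1 control, against 21.2 and 20.7 in NS high and 25.7, 23.7 and 22.2 in NS control. CPM are counts scaled to a common library size, with sizes adjusted by TMM. All 12 endothelial markers reached 1 CPM in each of the 11 libraries. Of the marker lists of other cell types, 3 of 8 pericyte, 2 of 8 fibroblast, 1 of 6 astrocyte, 1 of 8 leukocyte, 2 of 6 neuron and 3 of 6 epithelial markers did so. Within these lists levels were uneven. Of the pericyte markers, RGS5 (1491 to 2421 CPM over the libraries) and ANPEP (1325 to 1971 CPM) were high and PDGFRB was at most 0.363 CPM. Of the astrocyte markers, GJA1 ran from 346 to 445 CPM, GFAP was at most 0.125 CPM and AQP4 was at 0 in all 11. KRT18 (231 to 286 CPM) and KRT19 (33.6 to 110.1 CPM) led the epithelial list, where EPCAM was at most 0.625 CPM. COL1A2 reached 37.1 CPM and COL1A1 0.826 CPM among fibroblast markers, CD68 ran from 37.9 to 73.1 CPM and PTPRC reached 0.119 CPM among leukocyte markers, and TUBB3 of the neuron list ran from 49.0 to 125 CPM.

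Per length of transcript, the members were spread over a 28.6-fold range. The deposited RPKM, which corrects for transcript length and library size, was averaged over the 11 libraries for this order. PCNA, the sliding clamp, was highest at 62.3 RPKM, followed by the helicase subunits MCM7 at 36 and MCM3 at 34.9, and by the thymidylate makers TYMS at 34.3 and TK1 at 31.7. Of the members, 17 averaged 10 RPKM or more, 11 between 5 and 10, and 10 less than 5. Transcripts for the subunits of 1 complex were not at 1 level. The transcripts for the 6 subunits of the MCM ring span a 2.55-fold range, with MCM2 lowest at 14.1 RPKM. Those of RRM1 and RRM2, the subunits of ribonucleotide reductase, stood at 28.8 and 26 RPKM. The lowest members were CCNE2, a cyclin E, at 2.18 RPKM, MCM10, a helicase activator, at 2.85, and CLSPN, the checkpoint mediator claspin, at 3.25. Only PCNA stood clear of its neighbour, since its lowest library was above the highest of MCM7, and for every other pair of neighbours the ranges over the 11 libraries overlapped.

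**Figure D2:**
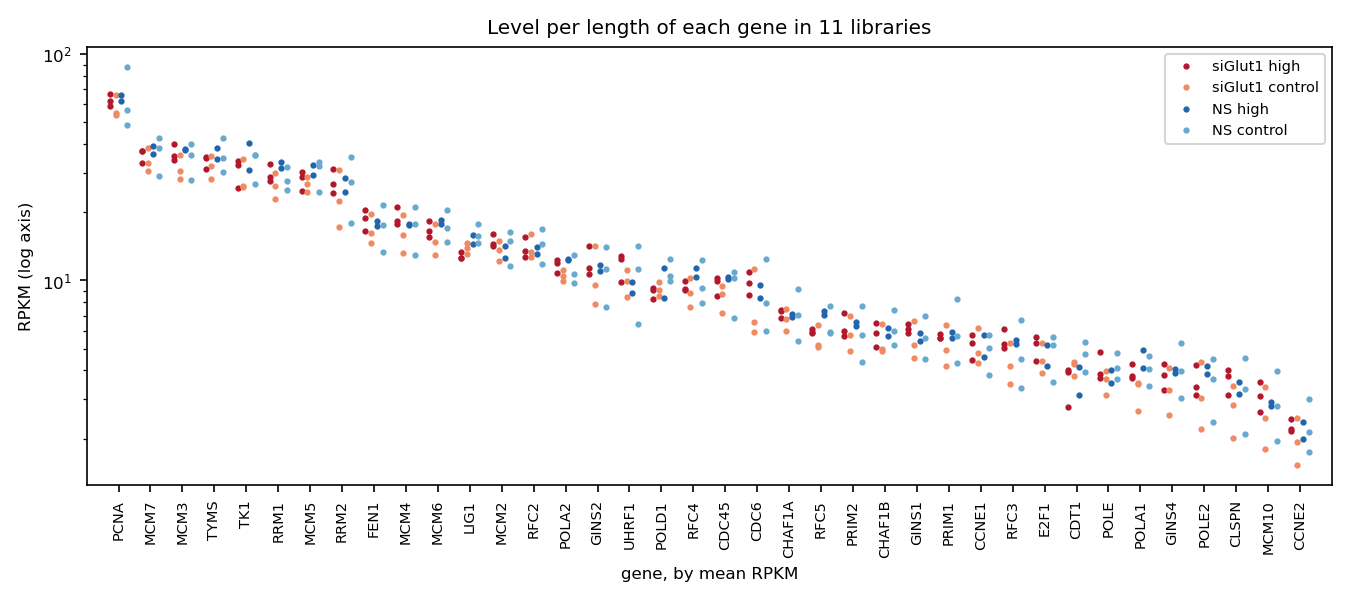
Deposited RPKM of the 38 members on a log axis (y), 1 column per gene ordered by its mean over the 11 libraries (x), with 1 point per library coloured by group. PCNA averages 62.3 RPKM and CCNE2 2.18 RPKM, and the 11 points of PCNA lie above the 11 of MCM7, while those of all other neighbouring columns overlap.

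Within the control-glucose groups the members differed between libraries by more than the group means differed. Their summed level was 1424, 1684 and 1556 CPM in siGlut1 high 1, 2 and 3, 1382, 1234 and 1611 in siGlut1 control 1, 2 and 3, 1512 and 1598 in NS high 1 and 3 and 1567, 1235 and 1795 in NS control 1, 2 and 3. The lowest sums were those of the libraries numbered 2 of both control-glucose groups, and the highest was that of NS control 3. In siGlut1 control 3 the sum was 1.31 times that in siGlut1 control 2, with 36 of 38 members higher, and 50.8% of all tested genes were higher. In NS control 3 it was 1.45 times that in NS control 2, with 38 of 38 members higher, and 49.95% of all tested genes. The library numbered 3 was the highest of its group for 35 members in siGlut1 control and 32 in NS control, and the library numbered 2 the lowest for 33 and 37. In siGlut1 high the order was another, with replicate 2 highest for 32 members and replicate 1 lowest for 32. Such counts of highest and lowest libraries were not computed over all genes. In siGlut1 high 1, 2 and 3 the members' median log2 deviation from the group mean was -0.11, 0.13 and 0.001. Over all tested genes that median was -0.005, 0.005 and 0.007.

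The size of the difference between the control-glucose libraries varied among the members. CDC6 in replicate 3 was 1.88 times its level in replicate 2 with siGlut1 and 2.01 times with NS, and the replication factor MCM10 had ratios of 1.85 and 1.95. CLSPN had 1.68 with siGlut1 and 2.08 with NS. UHRF1, which brings the maintenance DNA methyltransferase to copied DNA, had 1.3 and 2.12. POLE2, a subunit of polymerase epsilon, had 1.96 and 1.81, RRM2, a subunit of ribonucleotide reductase, 1.77 and 1.88, and GINS2, of the active helicase, 1.79 and 1.77. A few members stayed near 1. LIG1, the ligase that seals Okazaki fragments, had ratios of 0.88 with siGlut1 and 1.03 with NS, POLD1, the catalytic subunit of polymerase delta, had 0.918 and 1.01, and CDT1, the loading factor, had 1.01 and 1.15. These genes were picked out after their values were seen.

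**Figure D3:**
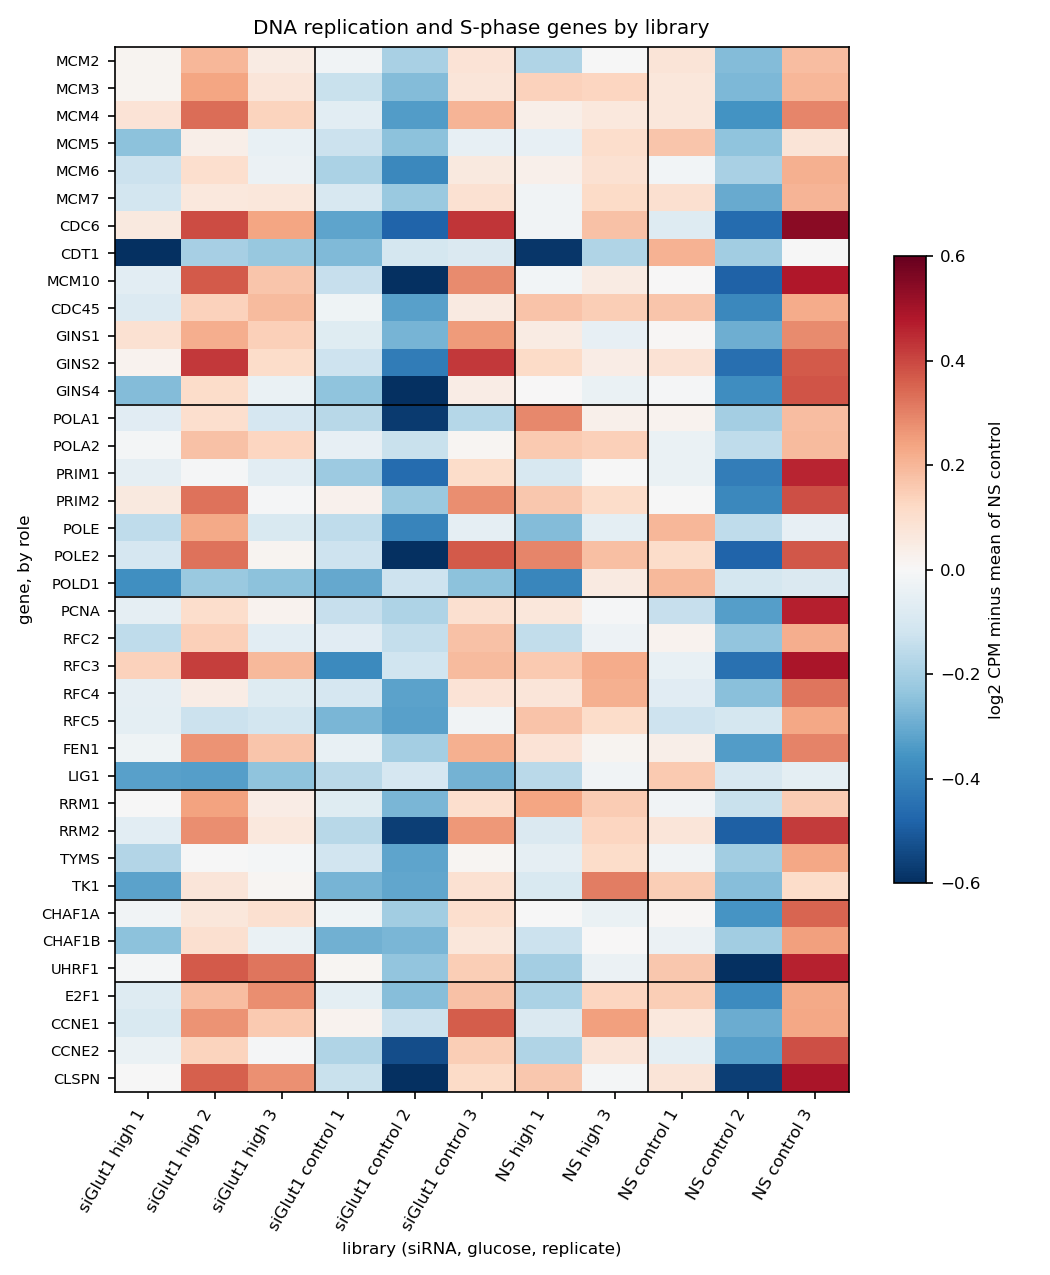
Level of each member (rows, grouped by role) in each of the 11 libraries (columns, by group), as log2 of CPM over the mean of NS control. Blocks of 1 colour run down much of a column, with siGlut1 control 2 and NS control 2 low and NS control 3 high, while LIG1 and POLD1 break the pattern. On this scale siGlut1 control 3 is mixed, with CDC6 above the NS control mean and POLA1 and POLE below it. The members' sums in siGlut1 control 3 and siGlut1 high 2 were 1611 and 1684 CPM, against a mean of 1533 in NS control.

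Other lists, cell type markers among them, differed between the same libraries. The summed level of 36 mitosis genes was 1932, 2283 and 1978 CPM in siGlut1 high, 1835, 1479 and 2116 in siGlut1 control, 2274 and 2274 in NS high and 2283, 1737 and 2552 in NS control, in replicate order. It too was lowest in the control-glucose libraries numbered 2 and highest in NS control 3. The 12 endothelial markers summed to 9543, 8169 and 8512 CPM in siGlut1 high, 9290.0, 9729 and 7819 in siGlut1 control, 7777 and 7911 in NS high and 8809, 9858 and 6763 in NS control. Their order within control glucose was the reverse, lowest in the libraries numbered 3 and highest in those numbered 2. Fibroblast markers summed to 45.9, 23.4 and 27.8 CPM in siGlut1 high, 29.1, 39.9 and 16.7 in siGlut1 control, 24.3 and 15.4 in NS high and 17.2, 28.3 and 9.3 in NS control, also highest in the libraries numbered 2 within control glucose. COL1A2 was the largest part of these control-glucose sums, with 21.8, 33.7 and 11.3 CPM in siGlut1 control and 11.5, 22.2 and 4.32 in NS control. FAP had 5.3, 3.42 and 2.57 CPM in siGlut1 control, highest in replicate 1, and 3.31, 3.64 and 1.85 in NS control. Epithelial markers summed to 276, 319.8 and 319 CPM in siGlut1 high, 292, 309.9 and 385 in siGlut1 control, 344 and 355 in NS high and 333, 311 and 389 in NS control. KRT19 of that list had 33.6, 45.2 and 50.3 CPM in siGlut1 high, 38.2, 38.7 and 110.1 in siGlut1 control, 42.3 and 55.4 in NS high and 43.3, 35.4 and 109 in NS control. Both were highest in the control-glucose libraries numbered 3. CD68, a leukocyte marker, had 48.5, 60.6 and 57.8 CPM in siGlut1 high, 49.4, 47 and 73.1 in siGlut1 control, 45.5 and 48.3 in NS high and 40.7, 37.9 and 58.1 in NS control. It was highest in siGlut1 control 3, and in NS control it was highest in replicate 3. CDK inhibitors summed to 791, 819.5 and 838 CPM in siGlut1 high, 888, 1004 and 879 in siGlut1 control, 778 and 889 in NS high and 889, 926 and 787 in NS control. Most of each of these sums was 1 gene, CDKN1A. It had 720, 753 and 765 CPM in siGlut1 high, 813, 921 and 805 in siGlut1 control, 697 and 797 in NS high and 795, 836 and 687 in NS control. The part of these lists in the members' values was not tested.

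**Figure D4:**
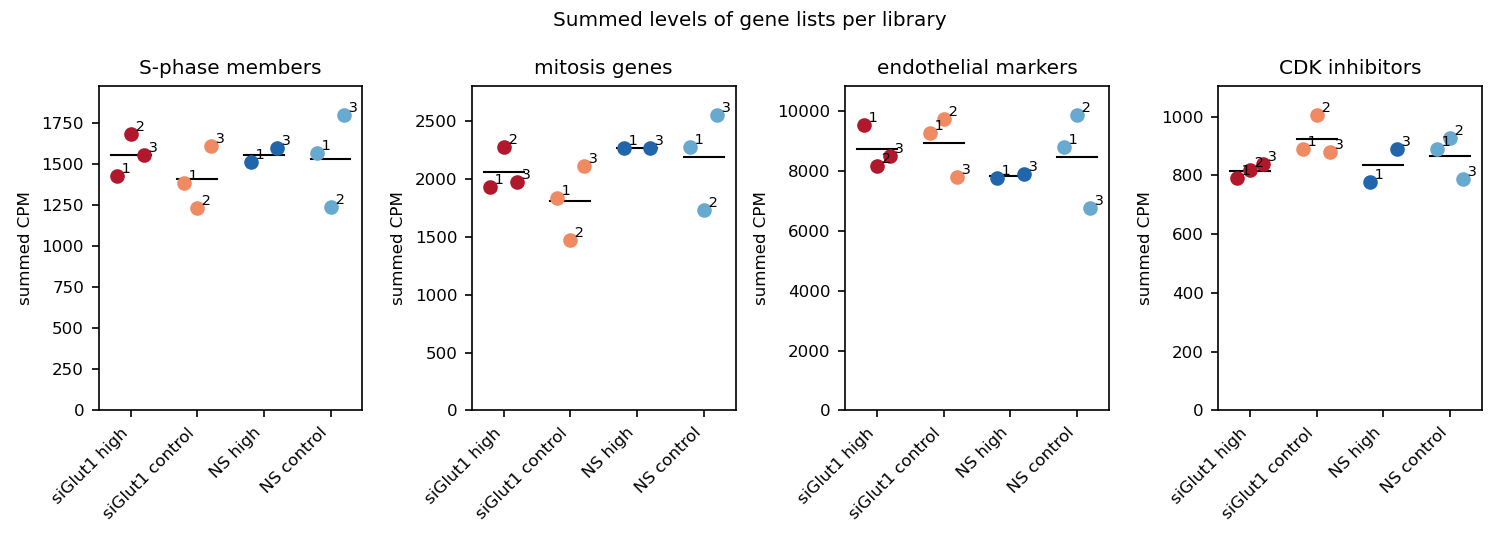
Summed CPM per library of the members, of the mitosis genes, of the endothelial markers and of the CDK inhibitors (axes from 0), with 1 point per library, labelled with its replicate number, and a bar at the group mean, groups from left to right siGlut1 high, siGlut1 control, NS high and NS control. NS control 3 is highest for the members at 1795 CPM and lowest for the endothelial markers at 6763 CPM. CDKN1A makes up most of each CDK inhibitor sum.

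In control glucose none of the members passed the test of siGlut1 against NS. Of 38 members, 37 had a log2 fold change below 0, against 51.4% of all tested genes, with a median of -0.13, or 8.69% less, against -0.01 over all genes. The exception was CCNE1, a cyclin E, at 0.08 ± 0.17 SE. By the quasi-likelihood F test of edgeR, with p-values adjusted by Benjamini and Hochberg's method over the 14324 genes, 0 of 38 members were past an adjusted p of 0.05, where 2.96% of all genes were, and 0.946% to 2.4% with single libraries left out. DESeq2 also called 0, where it called 7.32% of all genes. Only POLA1 had an unadjusted p under 0.05, against 17.4% of all genes. That count was 10 without NS control 2, 4 without siGlut1 control 3, 2 without NS high 1 or NS high 3 and 0 without siGlut1 high 1 or siGlut1 high 3. It was 6 with the replicate number as a block in the control-glucose libraries. There the smallest adjusted p was 0.0524 for POLA1 by edgeR, and 10.2% of all genes passed the adjusted threshold. The share of all genes at an unadjusted p under 0.05 is not given for these altered settings. Their counts therefore cannot be set against all genes or read as particular to the members. The intervals are wide, with a median half-width of the 95% interval of 0.33 on the log2 scale. The groups did not overlap for POLD1 and LIG1, both lower with siGlut1, and for 0 members higher, where 9.6% of all genes were lower and 11% higher in that way. Set against the NS library of the same number, the members' sum with siGlut1 was 0.882, 0.999 and 0.897 times that with NS for numbers 1, 2 and 3, with 37, 20 and 36 of 38 members lower. The direction of the median rested on NS control 3. Without that library the median was 0.04, with 14 members below 0. Without any other single library it stayed below 0, though its size varied. It was -0.26 without NS control 2, with all 38 below 0, and -0.03 without siGlut1 control 2, with 22 below 0.

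In high glucose the same siRNA left the members on both sides of 0. Of 38, 18 had a log2 fold change below 0, against 50.1% of all genes, and the median was 0.006. Past the threshold were 0 members by edgeR and 0 by DESeq2, where edgeR called 4.11% and DESeq2 9.21% of all genes. The edgeR share was 0.041% without NS high 3, 0.212% without NS high 1, 0.912% to 1.83% without a library of siGlut1 high and 7.57% without NS control 3. LIG1 alone had an unadjusted p under 0.05, against 20.8% of all genes. Non-overlapping groups were found for 4 higher members, MCM2, MCM4, GINS1 and UHRF1, and for 3 lower ones, RFC4, RFC5 and LIG1. Over all genes 22.6% were higher and 22% lower in that way with 3 libraries against 2. The median half-width of the 95% interval was 0.37.

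High glucose did not move any member past the threshold with either siRNA. With siGlut1, 34 of 38 members were above 0 and 4 below, against 53.4% of all genes below 0, and the median log2 fold change was 0.15, against -0.02 over all genes. With NS, 17 were below 0, against 54% of all genes, and the median was 0.02. By edgeR 0 members were called in either comparison, where 0.014% of all genes were called with siGlut1 and 0% with NS. DESeq2 called 0 members in both, and 3.02% of all genes with siGlut1 and 0.23% with NS. An unadjusted p under 0.05 was reached by 0 members with siGlut1 and 0 with NS, against 15.2% and 5.4% of all genes. POLA1 was the 1 member whose groups did not overlap with siGlut1, higher in high glucose, against 10.9% of all genes higher and 11.7% lower. With NS there were 0, against 8.61% higher and 9.23% lower. Both comparisons share their control-glucose libraries with those of the siRNA above.

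These values rested on the control-glucose libraries. Without both libraries numbered 3 the median with siGlut1 was 0.27 and CDC6 passed the threshold at 0.64 ± 0.13 SE (adjusted p = 0.0312 by edgeR), 1 of 38 members where 5.16% of all genes were called. Without both numbered 2, which was tried after the data were seen, the median was 0.05 and 0 members were called. Averaged over both siRNAs, high against control glucose gave a median of 0.08 with 4 of 38 members below 0, against 53.5% of all genes, and 0 calls by edgeR and by DESeq2, where edgeR called 0.412% and DESeq2 3.78% of all genes. RRM1, the large subunit of ribonucleotide reductase, at 0.18 ± 0.08 SE, and CDT1 at -0.30 ± 0.12 SE had an unadjusted p under 0.05, against 16.9% of all genes. Without both libraries numbered 3, 9 members passed the threshold, all higher in high glucose, namely CDC6, RFC3, RRM1, MCM3, RFC4, RFC5, PCNA, POLA2 and MCM6, and so did 18.1% of all genes. Without both numbered 2 the median was -0.04, with 28 members below 0 and 0 called.

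The difference between the siRNA effects in the media, which the interaction term tests directly, was not past the threshold for any member. Its median was 0.12, with 8 of 38 members below 0, against 49.2% of all genes. By edgeR 0 members were called, where 0% of all genes were, and 0 by DESeq2. An unadjusted p under 0.05 was reached by 0 members and by 2.75% of all genes. The largest value was that of UHRF1 at 0.44 ± 0.33 SE (95% interval -0.27 to 1.16), and the median half-width of the interval was 0.50. Without NS control 3 the median was -0.02 and without NS control 2 it was 0.26.

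Averaged over both media, siGlut1 against NS gave no call among the members, and the 3 smallest p-values were those of LIG1, RFC5 and POLA1. LIG1 had a log2 fold change of -0.20 ± 0.06 SE, adjusted p = 0.0609. RFC5, a subunit of the clamp loader, had -0.23 ± 0.08 SE, adjusted p = 0.0982, and POLA1, the catalytic subunit of polymerase alpha, had -0.25 ± 0.10 SE, adjusted p = 0.126, all by edgeR. These 3 were the members with an unadjusted p under 0.05, against 29.5% of all genes, and 0 of 38 passed the adjusted threshold, where 14.4% of all genes did. The median was -0.06, with 28 members below 0, against 50.9% of all genes. LIG1 stood just outside the threshold and passed it by DESeq2 (log2 fold change -0.20, adjusted p = 0.0276), where 19.3% of all genes were called. It also passed without NS control 3 (adjusted p = 0.0446 by edgeR, 17.5% of all genes called), and RFC5 passed without siGlut1 control 3 (adjusted p = 0.0482 by edgeR, 12.4% of all genes called). With the replicate number as a block in the 6 control-glucose libraries, where same-numbered libraries deviated together, 3 members were called by edgeR. They were RFC5 at -0.22 (adjusted p = 0.0105), POLA1 at -0.24 (0.0197) and LIG1 at -0.20 (0.0233), and 25.8% of all genes were called with them.

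**Figure D5:**
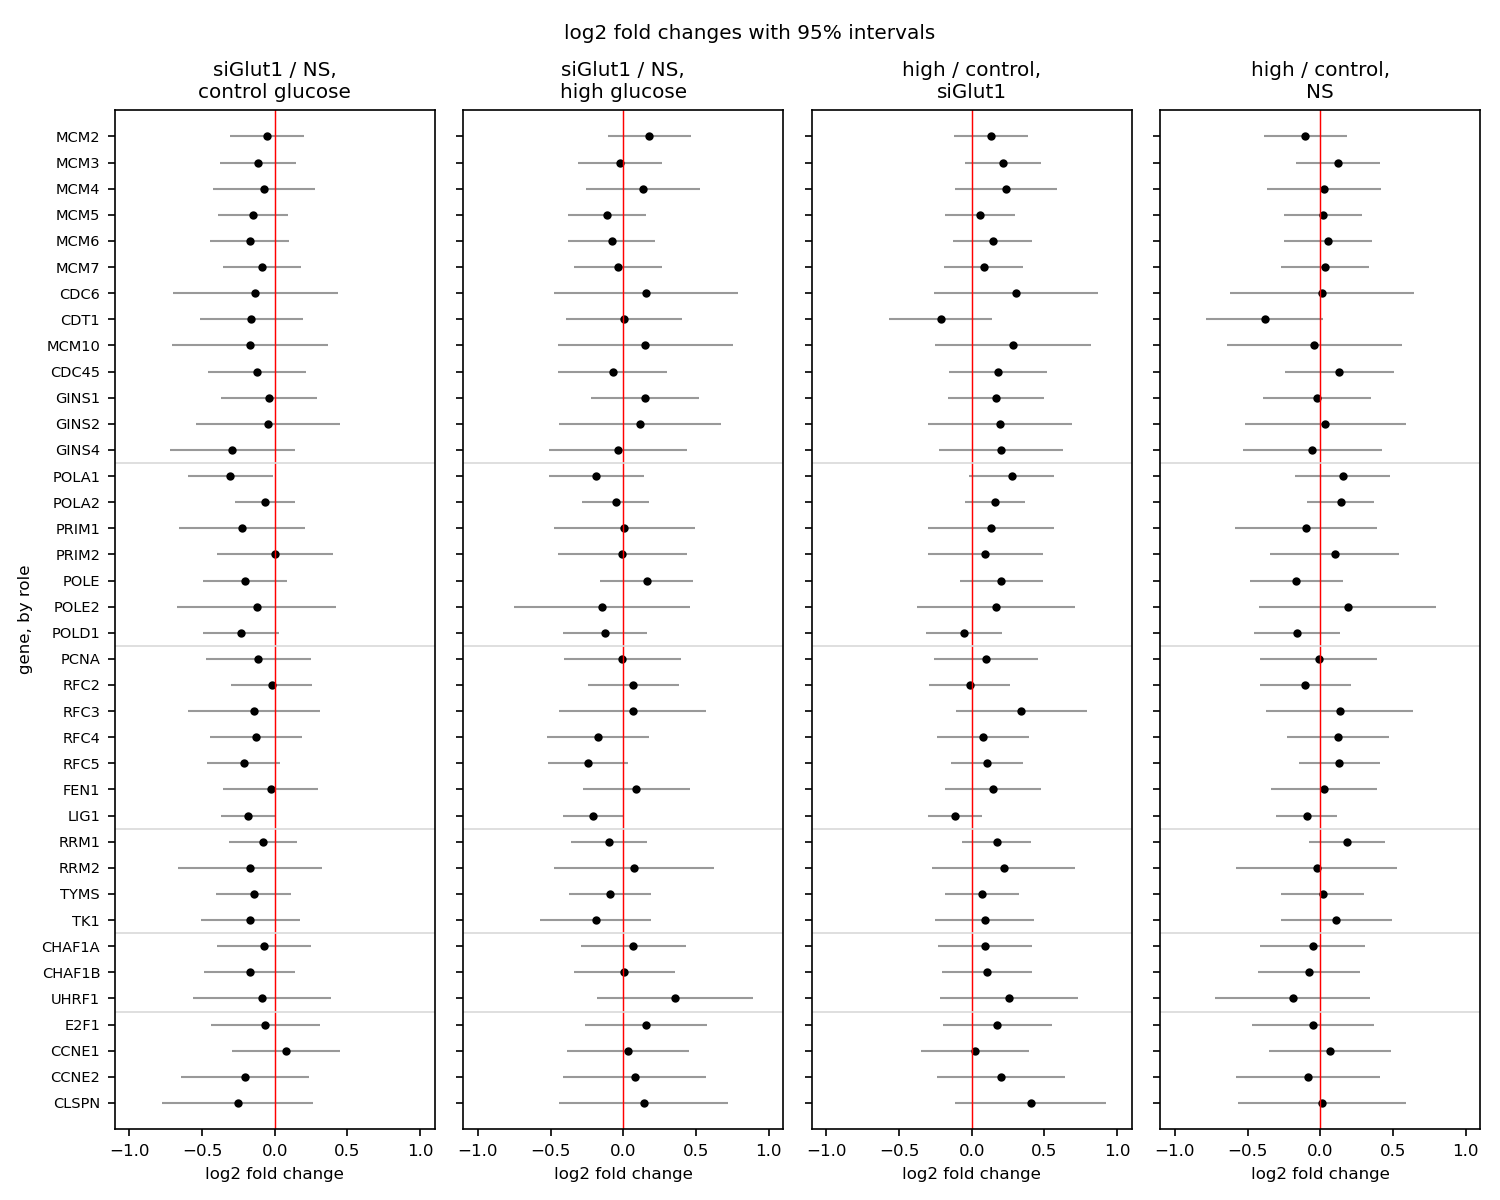
Log2 fold change of each member (rows, by role) with its 95% interval, for siGlut1 against NS in control and in high glucose and for high against control glucose with siGlut1 and with NS. Nearly all intervals cross 0, and in control glucose 37 of 38 points of siGlut1 against NS lie below 0.

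By role, levels below are in CPM and fold changes on the log2 scale. Among the 13 genes of the helicase and its loading, all 13 siGlut1 fold changes were below 0 in control glucose and 6 in high glucose. MCM7 (chr7:99690404-99699427, hg19), a subunit of the helicase ring, had 121, 137 and 137 CPM in siGlut1 high, 122, 112 and 139.6 in siGlut1 control, 129 and 142 in NS high and 140.2, 106 and 151 in NS control. MCM2, another subunit, had 51.7, 58.7 and 52.9 CPM in siGlut1 high, 50.4, 44.7 and 54.2 in siGlut1 control, 45.1 and 51.1 in NS high and 54, 42.7 and 58.1 in NS control. For MCM7 the ranges of the siGlut1 and NS libraries overlapped in both media. For MCM2 the 3 siGlut1 libraries of high glucose lay above both NS libraries (0.18 ± 0.13 SE, adjusted p = 0.48 by edgeR), while in control glucose the ranges overlapped. CDC6, which helps to load the ring, had 28.1, 35.4 and 31.8 CPM in siGlut1 high, 21.7, 19.4 and 36.4 in siGlut1 control, 26.6 and 30.5 in NS high and 25.5, 19.6 and 39.3 in NS control. In both control-glucose groups its replicate 3 stood far above the other two, and the glucose fold change with siGlut1 was 0.30 ± 0.26 SE, adjusted p = 0.605 by edgeR. CDT1 had 7.88, 11.4 and 11.2 CPM in siGlut1 high, 10.9, 12.2 and 12.3 in siGlut1 control, 8.71 and 11.5 in NS high and 15.1, 11.3 and 13.1 in NS control. It was the member with the lowest glucose fold change with NS (-0.38 ± 0.18 SE, adjusted p = 0.917 by edgeR), and its levels in NS high 1 and 3 straddled the lowest NS control library. GINS4, of the complex that activates the helicase, had 13.5, 17.4 and 15.7 CPM in siGlut1 high, 13.6, 10.5 and 16.6 in siGlut1 control, 16.2 and 15.7 in NS high and 16.1, 12.4 and 21 in NS control. Its siGlut1 fold change in control glucose was -0.29 ± 0.20 SE, adjusted p = 0.488 by edgeR, with overlapping ranges. The other 8, MCM3, MCM4, MCM5, MCM6, MCM10, CDC45, GINS1 and GINS2, lay between -0.17 and -0.04 in control glucose and between -0.11 and 0.15 in high glucose.

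Among the 7 polymerase and primase genes, POLA1 (chrX:24712064-25015102, hg19) had the lowest siGlut1 fold change of all members in control glucose. It had 21.8, 24.6 and 21.4 CPM in siGlut1 high, 20.4, 15.4 and 20.3 in siGlut1 control, 27.9 and 23.4 in NS high and 23.2, 19.8 and 26 in NS control. The fold change was -0.31 ± 0.13 SE, adjusted p = 0.266 by edgeR, and the siGlut1 control range, with its low replicate 2, overlapped that of NS control. In high glucose it was -0.18 ± 0.15 SE, adjusted p = 0.528, again with overlap. POLA2, the second subunit of polymerase alpha, had 28.6, 32.5 and 31.5 CPM in siGlut1 high, 27.9, 26.2 and 29 in siGlut1 control, 32.1 and 31.8 in NS high and 28, 26 and 32.9 in NS control. Its siGlut1 fold changes were -0.07 ± 0.09 SE in control and -0.05 ± 0.10 SE in high glucose. PRIM2, a primase subunit with a near-identical copy in the genome that makes its counts uncertain, had 14.5, 17.4 and 13.8 CPM in siGlut1 high, 14.1, 11.9 and 16.8 in siGlut1 control, 15.6 and 15 in NS high and 13.9, 10.6 and 18.2 in NS control. The groups overlapped throughout. POLE, the catalytic subunit of the leading-strand polymerase, had 30.9, 40.2 and 32.2 CPM in siGlut1 high, 30.8, 26 and 33 in siGlut1 control, 28.6 and 32.9 in NS high and 39.4, 30.9 and 33.1 in NS control. Its siGlut1 fold change was -0.20 ± 0.13 SE in control and 0.16 ± 0.15 SE in high glucose, both with overlap. POLE2, its second subunit and a low member, had 6.46, 8.71 and 7.02 CPM in siGlut1 high, 6.36, 4.56 and 8.96 in siGlut1 control, 8.51 and 7.86 in NS high and 7.5, 4.96 and 8.99 in NS control. POLD1 had 30.5, 33.8 and 33.2 CPM in siGlut1 high, 31.8, 36.2 and 33.2 in siGlut1 control, 30 and 40.9 in NS high and 45.1, 36.6 and 37 in NS control. The 3 siGlut1 control libraries lay below the 3 of NS control, by a narrow margin (-0.23 ± 0.12 SE, adjusted p = 0.362 by edgeR), and NS high 1 stood below NS high 3 by more than any of the siGlut1 libraries differed. PRIM1, the catalytic primase subunit, was at -0.23 ± 0.20 SE in control and 0.01 ± 0.22 SE in high glucose.

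Of the 7 genes of the clamp, its loader and the lagging strand, LIG1 (chr19:48618703-48673560, hg19) was the only member whose siGlut1 and NS libraries were apart in both media. It had 41.3, 41.2 and 43.9 CPM in siGlut1 high, 46.2, 48.3 and 42.5 in siGlut1 control, 46.3 and 51.1 in NS high and 57.8, 48.4 and 49.7 in NS control. In each medium the highest siGlut1 library lay below the lowest NS library, narrowly so in control glucose. Of all genes, 9.6% were lower in that way in control and 22% in high glucose. The share of all genes apart in both media was not computed, so the separation cannot be read as particular to LIG1. The means were 42.1 ± 1.49 CPM in siGlut1 high (SD, n = 3), 45.7 ± 2.94 CPM in siGlut1 control (SD, n = 3), 48.7 ± 3.37 CPM in NS high (SD, n = 2) and 52 ± 5.06 CPM in NS control (SD, n = 3). The fold change was -0.18 ± 0.09 SE, adjusted p = 0.291 in control and -0.21 ± 0.09 SE, adjusted p = 0.237 in high glucose by edgeR, neither past the threshold. RFC5 had 16.1, 15.4 and 15.6 CPM in siGlut1 high, 13.9, 13.4 and 16.6 in siGlut1 control, 18.9 and 18.1 in NS high and 15.4, 15.6 and 19.7 in NS control. Its siGlut1 libraries lay below those of NS in high glucose (-0.24 ± 0.13 SE, adjusted p = 0.307 by edgeR) and overlapped them in control glucose (-0.21 ± 0.11 SE, adjusted p = 0.371). PCNA had 91.1, 102 and 95.7 CPM in siGlut1 high, 85.8, 83 and 101 in siGlut1 control, 99.1 and 94.1 in NS high and 86, 75.1 and 131 in NS control. NS control 3 stood apart at the top of its group, and the siGlut1 fold changes were -0.11 ± 0.16 SE in control and -0.01 ± 0.18 SE in high glucose. RFC2, a clamp loader subunit like RFC5, had 22.9, 28.1 and 24.3 CPM in siGlut1 high, 24.3, 23 and 28.7 in siGlut1 control, 23 and 24.9 in NS high and 25.8, 21.6 and 29.6 in NS control. Its siGlut1 fold changes were -0.02 ± 0.13 SE in control and 0.07 ± 0.14 SE in high glucose. RFC3, of the same loader, had 15.4, 18.7 and 16 CPM in siGlut1 high, 10.7, 12.9 and 16 in siGlut1 control, 15.6 and 16.4 in NS high and 13.6, 10.3 and 19.7 in NS control. Its glucose fold change with siGlut1 was 0.34 ± 0.21 SE, adjusted p = 0.459 by edgeR, with overlapping ranges. RFC4, another loader subunit, was at -0.13 ± 0.14 SE in control and -0.18 ± 0.16 SE in high glucose, and FEN1, the nuclease that trims Okazaki fragments, at -0.03 ± 0.15 SE and 0.09 ± 0.17 SE.

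All 4 genes of nucleotide supply had siGlut1 fold changes below 0 in control glucose. TYMS, which makes thymidylate, had 52.3, 58.9 and 58.6 CPM in siGlut1 high, 54.6, 47.5 and 59.6 in siGlut1 control, 56.9 and 63.7 in NS high and 58.1, 51.2 and 69.3 in NS control. TK1, which salvages thymidine, had 43.8, 57.4 and 55.1 CPM in siGlut1 high, 45, 43.9 and 58.3 in siGlut1 control, 51.3 and 67.6 in NS high and 60.5, 45.7 and 59 in NS control. RRM1 had 93.8, 111 and 97.1 CPM in siGlut1 high, 89.6, 77.8 and 101 in siGlut1 control, 111 and 104 in NS high and 92.9, 85.7 and 105 in NS control. The siGlut1 and NS ranges overlapped for all 3 in both media. The siGlut1 fold changes in control and high glucose were -0.15 ± 0.12 SE and -0.09 ± 0.13 SE for TYMS, -0.17 ± 0.16 SE and -0.19 ± 0.17 SE for TK1 and -0.08 ± 0.11 SE and -0.10 ± 0.12 SE for RRM1. RRM1 had the highest glucose fold change with NS together with POLE2 (0.19 ± 0.12 SE and 0.19 ± 0.28 SE, adjusted p = 0.939 and 0.979 by edgeR). RRM2, the small subunit of the reductase, was at -0.17 ± 0.23 SE in control and 0.07 ± 0.25 SE in high glucose. TYMS shares 3176 bases with ENOSF1, a gene that overlaps it, and whether reads were counted by strand is not stated. The overlaps of MCM7 with AP4M1, CCNE2 with INTS8 and RFC4 with EIF4A2 are 298, 269 and 4 bases.

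In the remaining roles, chromatin copying and the entry into S phase, single members spread widest. UHRF1 (chr19:4909510-4962165, hg19) had 44.3, 57.7 and 55.8 CPM in siGlut1 high, 45.1, 37.9 and 49.4 in siGlut1 control, 38.7 and 43.6 in NS high and 49.9, 29 and 61.5 in NS control. Its siGlut1 libraries of high glucose lay above both NS libraries, the highest siGlut1 fold change of any member there (0.35 ± 0.24 SE, adjusted p = 0.452 by edgeR, 95% interval -0.18 to 0.89). In control glucose the NS libraries alone spanned more than all siGlut1 libraries of either medium. CHAF1A and CHAF1B, of the complex that places histones on new DNA, were at -0.07 ± 0.15 SE and -0.17 ± 0.14 SE in control and at 0.07 ± 0.16 SE and 0.01 ± 0.16 SE in high glucose. CLSPN had 28.1, 36.1 and 34 CPM in siGlut1 high, 25.7, 18.2 and 30.5 in siGlut1 control, 31.6 and 27.9 in NS high and 29.7, 19 and 39.5 in NS control. It had the highest glucose fold change with siGlut1 (0.41 ± 0.24 SE, adjusted p = 0.443 by edgeR), with overlapping ranges. CCNE1, which with its kinase opens S phase, had 9.21, 11.9 and 11 CPM in siGlut1 high, 9.99, 8.98 and 12.7 in siGlut1 control, 9.26 and 11.7 in NS high and 10.3, 8 and 11.6 in NS control. Its 4 groups overlapped. E2F1 was at -0.07 ± 0.17 SE in control and 0.16 ± 0.19 SE in high glucose, and CCNE2 at -0.21 ± 0.20 SE and 0.08 ± 0.22 SE.

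Genes around the members, in lists of related function, are given for the average over the media, in which 14.4% of all genes were called and 50.9% were below 0. Values are log2 fold changes. Of 40 other replication genes 3 were called by edgeR, all lower with siGlut1, a smaller share than of all genes. SUPT16H, a subunit of the histone chaperone FACT, fell (-0.33 ± 0.06 SE, adjusted p = 0.00365), as did ORC3, of the origin recognition complex (-0.25 ± 0.06 SE, adjusted p = 0.018), and RFC1, the large clamp loader subunit (-0.19 ± 0.05 SE, adjusted p = 0.0357). Of 22 other nucleotide supply genes, 1 was higher and 3 lower. SAMHD1, which breaks down deoxynucleotides, rose (0.997 ± 0.13 SE, adjusted p = 0.00083), and SHMT2, a mitochondrial enzyme of one-carbon supply, fell (-0.28 ± 0.04 SE, adjusted p = 0.00189). DUT, which removes dUTP (-0.38 ± 0.10 SE, adjusted p = 0.0241), and RRM2B, a reductase subunit (-0.24 ± 0.06 SE, adjusted p = 0.0183), were the others that fell.

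Among regulators of the G1 to S step, CCND1, the cyclin D that starts the inactivation of the retinoblastoma protein, fell with siGlut1 averaged over the media (-0.43 ± 0.07 SE, adjusted p = 0.00235 by edgeR), while CCND3, another cyclin D, rose (0.26 ± 0.08 SE, adjusted p = 0.0471). These were the 2 of 11 G1 cyclins and kinases past the threshold, a share near the 14.4% of all genes. CDKN1A, the CDK inhibitor with most counts, was at 0.06 ± 0.07 SE (adjusted p = 0.559 by edgeR). Of 8 CDK inhibitors and related genes, 3 fell. They were CDKN3, a phosphatase that acts on the kinases (-0.53 ± 0.11 SE, adjusted p = 0.00949), CDKN2C, which binds the cyclin D kinases (-0.48 ± 0.10 SE, adjusted p = 0.00985), and CDKN1B, which binds cyclin E and its kinase (-0.41 ± 0.12 SE, adjusted p = 0.042). Of 18 E2F, pocket protein and related genes, E2F7, a repressor, rose (0.33 ± 0.10 SE, adjusted p = 0.0482), as did MYC (0.23 ± 0.06 SE, adjusted p = 0.0359). Of 25 checkpoint and fork repair genes 1 rose, ATRIP, the partner of the kinase ATR (0.27 ± 0.07 SE, adjusted p = 0.0189), and of 13 histone supply genes and chaperones the smallest adjusted p was 0.229 by edgeR. Of 36 mitosis genes, all 36 were below 0 in this average, against 50.9% of all genes, and 2 passed the threshold, a smaller share than the 14.4% of all genes. They were CDC25B, a phosphatase that starts mitosis, which fell (-0.33 ± 0.05 SE, adjusted p = 0.00199), and KIF20A, a kinesin of cell division, which fell (-0.28 ± 0.08 SE, adjusted p = 0.0448). The calls in these averages held under every one of the 22 alternatives for SUPT16H, SAMHD1, SHMT2, CCND1, CDKN3 and CDC25B. Of the other 11, ORC3 was lost without NS high 1 (adjusted p = 0.0924) and CDKN2C without NS high 3 (adjusted p = 0.058). RRM2B was lost without NS high 1 or NS high 3 (highest adjusted p 0.0863), ATRIP without siGlut1 high 2, NS high 1 or both control-glucose libraries numbered 2 (highest 0.0924), and DUT without siGlut1 high 2, siGlut1 high 3 or NS high 3 (highest 0.112). RFC1, E2F7, MYC, CCND3, CDKN1B and KIF20A were lost without 8 or 9 of the 11 single libraries, with adjusted p up to 0.168. Within single media, SUPT16H, SAMHD1, SHMT2, CCND1 and CDC25B passed in control glucose and SAMHD1, SHMT2 and CDC25B in high glucose, each call being lost with at least 2 of the single libraries left out.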

How the data were processed

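The labels name both a stranded TruSeq and a SMARTER library kit for all samples, and do not tie a kit to a library. Per the submitters' processing notes, the build was hg19 and DESeq2 was used. The aligner, counting tool, annotation and strand setting are not given in the sources used. Per the file headers, 1 raw count and 1 RPKM were deposited per gene and library. The counts as deposited are even numbers throughout the 11 libraries used. RPKM, scaled by the authors for gene length and library total, served only for levels per length.

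Counts of 23274 entries (124 of chromosome Y or XIST were left out) were fitted in R 4.3.3 with edgeR 4.0.16. filterByExpr left 14324 genes, TMM scaled the libraries (factors 0.975 to 1.03), and all 4 groups entered 1 quasi-likelihood model with 7 residual degrees of freedom. The 7 comparisons were tested with two-sided F tests and Benjamini-Hochberg adjustment over all genes tested at 0.05. A standard error is the log2 fold change over the square root of F. DESeq2 1.42.0 was an alternative.

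The members and lists were chosen with earlier results of these data known. Levels in every library are printed for members with the 3 highest and 3 lowest fold changes per comparison of 2 groups and for the highest member per role (22 members). Genes of other lists are named by smallest adjusted p, up to 4 per list, and CDKN1A as the largest part of its list's sum. The rule for promoters allowed up to 6, of which the first 3 are printed. Same-numbered libraries correlated in their deviations from group means at 0.292, 0.665 and 0.757 in control glucose, where the numbers were taken to pair the libraries. Within high glucose the pairs numbered 1 and 3 correlated at 0.458 and 0.417, and pairs across the media at -0.562 to 0.536. Over all 15 same-numbered pairs the range was -0.562 to 0.757, with 9 over 0.1. For 10 of 11 libraries the best correlated library of another group had the same number. The numbers were still taken to pair in control glucose alone, with a block over all 11 libraries as an alternative. Promoter windows are RefSeq's on GRCh38.p14 and all other coordinates are hg19. Count depth, 40135082 to 90536476 per library, covers counting error only.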

Additional observations from a re-analysis of the deposited data

How the results depend on the processing

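Alternatives were a replicate block, DESeq2, DESeq2 size factors in edgeR, both filters on low counts, a trend on gene length removed, only the groups compared, all 12 columns, each library left out and both control-glucose libraries numbered 3 left out. Halved counts, a block in control glucose only and leaving out both libraries numbered 2 were chosen after the data were seen. The count of members called, 0 in each of the 7 comparisons, stayed at 0 except in 3 of them. For siGlut1 averaged over glucose it was 1 with DESeq2 (19.3% of all genes called), 2 with all 12 columns (LIG1 and RFC5, 22.6%), 1 without both libraries numbered 3 (17.8%), 3 with the replicate block in control glucose only (25.8%), and 0 to 1 with single libraries left out (6.84% to 17.5%). Without both libraries numbered 3 it was 1 for high glucose with siGlut1 (5.16%) and 9 for high glucose averaged over siRNA (18.1%). With the replicate block over all 11 libraries 0 members were called in each comparison, and the siGlut1 median was -0.13 in control and 0.06 in high glucose. All 11 sign changes among 158 recomputed medians, and all 261 among 4034 values of single members, were between values not past the threshold, and are not counted as reversals. With single libraries left out the median ranged from -0.26 to 0.04 for siGlut1 in control glucose, -0.06 to 0.07 in high glucose, 0.05 to 0.27 for high glucose with siGlut1 and -0.14 to 0.17 with NS. In each group of control glucose the libraries numbered 2 and 3 set these limits for glucose. The cause was not tested. The median half-width of the members' intervals for siGlut1 in control glucose was about 0.33 on the log2 scale, without adjustment for the number of genes tested. The adjusted threshold is stricter than these intervals, so a typical member could differ by more than 0.33 and still not be called. The smallest difference that could be called was not computed.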
